A study of Mus musculus with 9 samples.

Results

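The genes described here are 38 that serve protein folding in the endoplasmic reticulum (ER) and the unfolded protein response, among the 54232 genes of a count table from mouse lacrimal gland. They were chosen by name from what their products do, not from their counts. They comprise 11 chaperones and cochaperones, 4 protein disulfide isomerases, 7 subunits of the translocation machinery, 9 stress sensors and transcription factors, and 7 genes of ER-associated degradation. All 38 had enough counts to be tested, as did 14944 genes of the whole table. RNA was measured by sequencing in lacrimal glands of C57BL/6J female mice fed ad libitum, with 3 libraries at each of 2, 12 and 24 months of age, and the sample titles of the youngest group give its age in weeks as 8W. No genetic change or treatment is given for any group, so the groups differ by age alone as far as the labels say. The labels do not say whether a library came from 1 mouse or from a pool, so the p-values reflect no more than the spread among these libraries, and that spread may be technical.

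The lacrimal gland secretes the protein-rich watery layer of tears, and its acinar cells load newly made proteins into the ER through the Sec61 channel. Inside the ER, chaperones such as BiP (Hspa5) hold unfolded chains, disulfide isomerases join their cysteines, and chains that fail to fold are sent back to the cytosol for degradation. When unfolded protein builds up, the sensors IRE1 (Ern1), PERK (Eif2ak3) and ATF6 (Atf6) raise transcription of folding and degradation genes through the factors XBP1, ATF4 and cleaved ATF6. IRE1 acts by splicing the Xbp1 mRNA and PERK by slowing translation, and neither step can be read from counts per gene.

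A sequence shared by several of these promoters is the ER stress response element (ERSE), the site through which ATF6, together with NF-Y, acts. The letters searched were CCAAT, then 9 bases of any kind, then CCACG, on both strands, in 250 bases before and 50 after each gene start in RefSeq promoters of GRCm38.p6, in which 31 of the 38 genes had an entry. It was found in 8 of these 31 (25.8%), namely Hspa5, Hsp90b1, Calr, Canx, Creld2, Dnajc3, Pdia6 and Syvn1, and in 39 of all 32851 promoters (0.119%). The genes were chosen for their part in this response, so the higher share among them follows in part from that choice. A related element, ERSE-II, was searched as ATTGG, then 1 base of any kind, then CCACG, on both strands, and found in Herpud1 and Dnajb11, against 0.0365% of all promoters. Shown 5′ to 3′ on the strand of each gene are the element of the best known ERSE gene, Hspa5, that of Canx, the ERSE gene that fell with age, that of Pdia6, which did not pass the test, and the ERSE-II of Herpud1. Capitals mark the element and lower case the bases around it.
Hspa5 (chr2:34772020-34772048, plus strand): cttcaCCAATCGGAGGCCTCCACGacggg
Canx (chr11:50325780-50325838, minus strand): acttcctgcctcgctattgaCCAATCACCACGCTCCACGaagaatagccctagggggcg
Pdia6 (chr12:17266471-17266529, plus strand): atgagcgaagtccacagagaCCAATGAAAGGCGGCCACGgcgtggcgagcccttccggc
Herpud1 (chr8:94386357-94386407, plus strand): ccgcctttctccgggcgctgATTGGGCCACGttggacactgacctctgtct
The 4 stretches end upstream of the RefSeq start, with 46, 126, 79 and 41 bases from the element to the start in the order shown. That of Hspa5 overlaps an exon of a longer GENCODE M21 model and is cut shorter for that reason, and the other 3 overlap no annotated exon. A match is a description of the letters and not a measured binding site. The UPRE core TGACGTGG was in none of the 31 promoters and in 0.676% of all, and the composite site of C/EBP and ATF factors, searched as TGATGNAAN, was in Herpud1 and Trib3 and in 3.95% of all.

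Each library held 40516863 to 42573877 counts, of which the 10 most abundant genes took 61.1 to 68.1% and the 38 genes 0.683 to 0.858%. Levels are in CPM, counts relative to the library total after scaling by the trimmed mean of M values (TMM), and a difference is called at an adjusted p under 0.05 from edgeR's quasi-likelihood test. With library totals in place of TMM the median log2 difference of all genes from 2 to 24 months moved from 0.01 to 0.31, and 93.2% instead of 56.5% of calls were increases. Differences below are therefore relative to the bulk of genes. Transcripts of salivary gland were present in 2-month replicate 3, 12-month replicate 2 and 24-month replicate 2 (252 to 845 CPM summed over 6 genes, against at most 71 in the others). Without these 3 libraries, 2 libraries an age remained, 626 genes (4.16%) were called between 2 and 24 months, and 0 of the 38 by edgeR's test. The log2 differences of the 11 genes called lower with all libraries were then between -0.77 and -0.31, against -1.01 to -0.32, for example -0.67 for Sec61b, -0.52 for Ssr2, -0.52 for Atf4 and -0.37 for Creb3l1. At an unadjusted p under 0.05 there were then 9 of the 38, all 9 lower and all among the 11 called lower with 9 libraries, against 21.1% of all genes. The 9 markers of lacrimal acinar cells summed to 263000 to 404000 CPM. In bulk RNA, fewer cells of a type and less RNA per cell cannot be told apart.

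Levels of different genes are compared only per kilobase of mRNA, using the median length of each gene's principal transcripts in GENCODE M21. On that scale the disulfide isomerase P4hb stood highest at 2 months with 825 CPM per kb. Next came Sec61b with 336, Xbp1 with 332, Calr with 299, Ssr4 with 276, Ssr2 with 208 and Hspa5 with 161. The 3 sensors were expressed far lower, with Ern1 at 4.58, Eif2ak3 at 3.73 and Atf6 at 3.37 CPM per kb. Trib3, a pseudokinase induced by ATF4, was lowest at 0.36. Over the 9 libraries 36 of the 38 genes averaged at least 10 CPM, all but Ddit3 and Trib3.

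**Figure D1:**
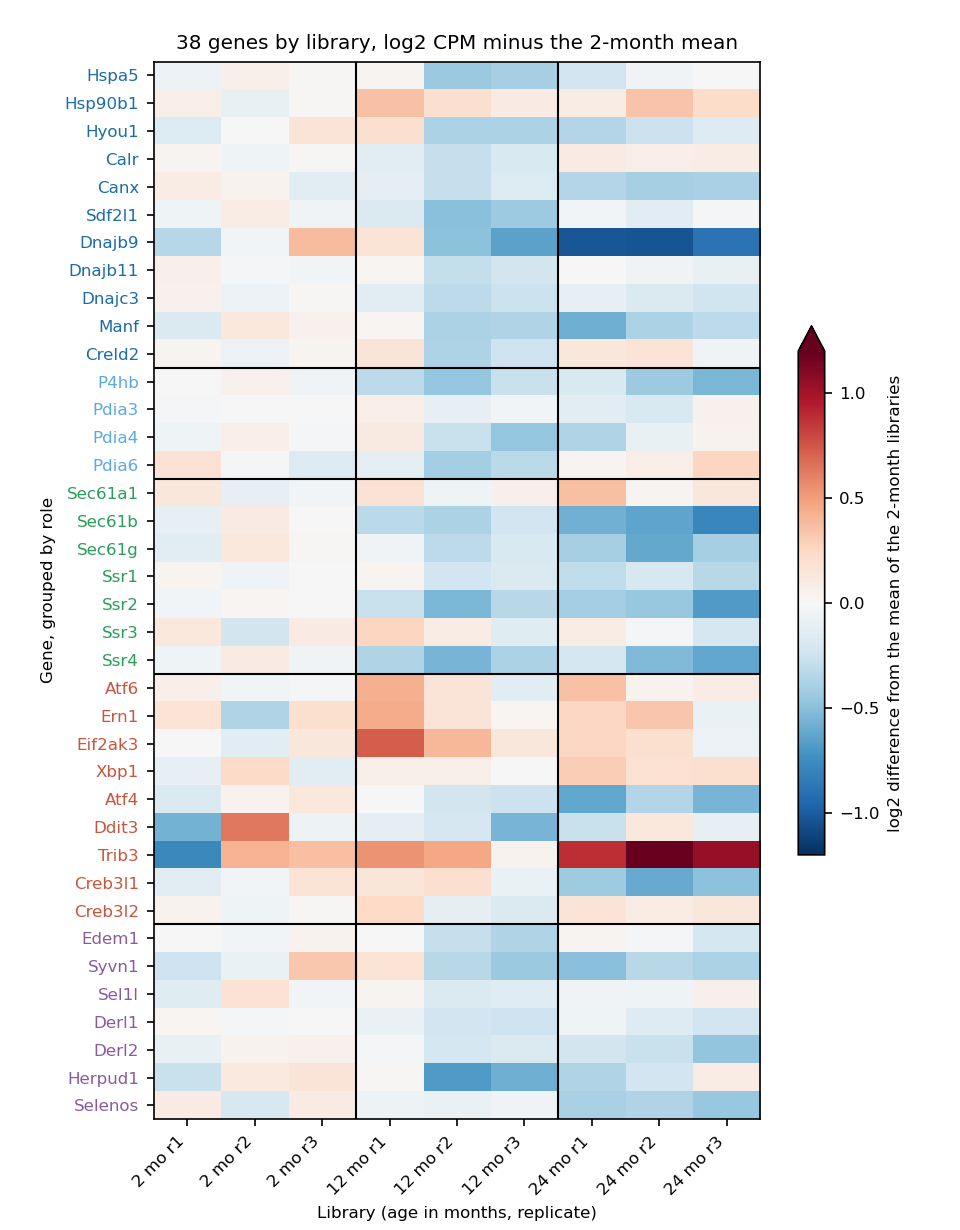
Each row is 1 of the 38 genes, grouped by role and coloured by role in its name, and each column is 1 library (age in months, replicate). Colour gives log2 CPM minus the mean of the 3 libraries at 2 months, red higher and blue lower, with the scale ending at 1.2. Dnajb9 and Sec61b are blue in all 3 libraries at 24 months, Trib3 is red there, and replicate 1 at 12 months stands apart from the other 12-month libraries in most rows.

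Glands of old mice were first compared with those of young adults. Of the 38 genes 11 were lower and 1 was higher, against 7.56% of all tested genes lower, 9.82% higher and 17.4% in either direction (edgeR quasi-likelihood test, Benjamini-Hochberg adjustment over 14944 genes). The 11 were the channel subunits Sec61b and Sec61g, the translocon-associated Ssr2 and Ssr4, the chaperones Dnajb9, Canx and Manf, the factors Atf4 and Creb3l1, and Derl2 and Selenos of degradation. Trib3 was the 1 that rose. The decreases lay between -0.32 and -0.66 on the log2 scale, except that of Dnajb9 at -1.01. Among the 5066 protein-coding genes averaging at least 10 CPM, the share lower was 15.8% and the share higher 6.42%, and 11 of the 36 genes of that level fell. The median log2 difference of the 38 was -0.13 with TMM and 0.19 with library totals alone, against 0.01 and 0.31 for all genes, so its sign depends on the scaling while 27 of 38 lay below the median gene under both. In 16 of the 38 all 3 old libraries lay below all 3 young ones, against 16.7% of all genes, and in 4 all lay above, against 18.4%. Leaving out single libraries gave 5 to 11 decreases, with 5 without 2-month replicate 2, 6 without 2-month replicate 3, 7 without 24-month replicate 2 and 5 without 24-month replicate 3. Dnajb9, Sec61b, Ssr2 and Creb3l1 remained called in each of the 9 fits with 1 library left out. Library totals alone left Dnajb9 and Sec61b lower and placed Hsp90b1, Xbp1, Sec61a1 and Trib3 higher, with 18.9% of all genes called. DESeq2 gave 13 lower and 1 higher of the 38, against 17.3% of all genes by that tool, and limma voom 12 lower and 1 higher, against 15.7%.

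**Figure D2:**
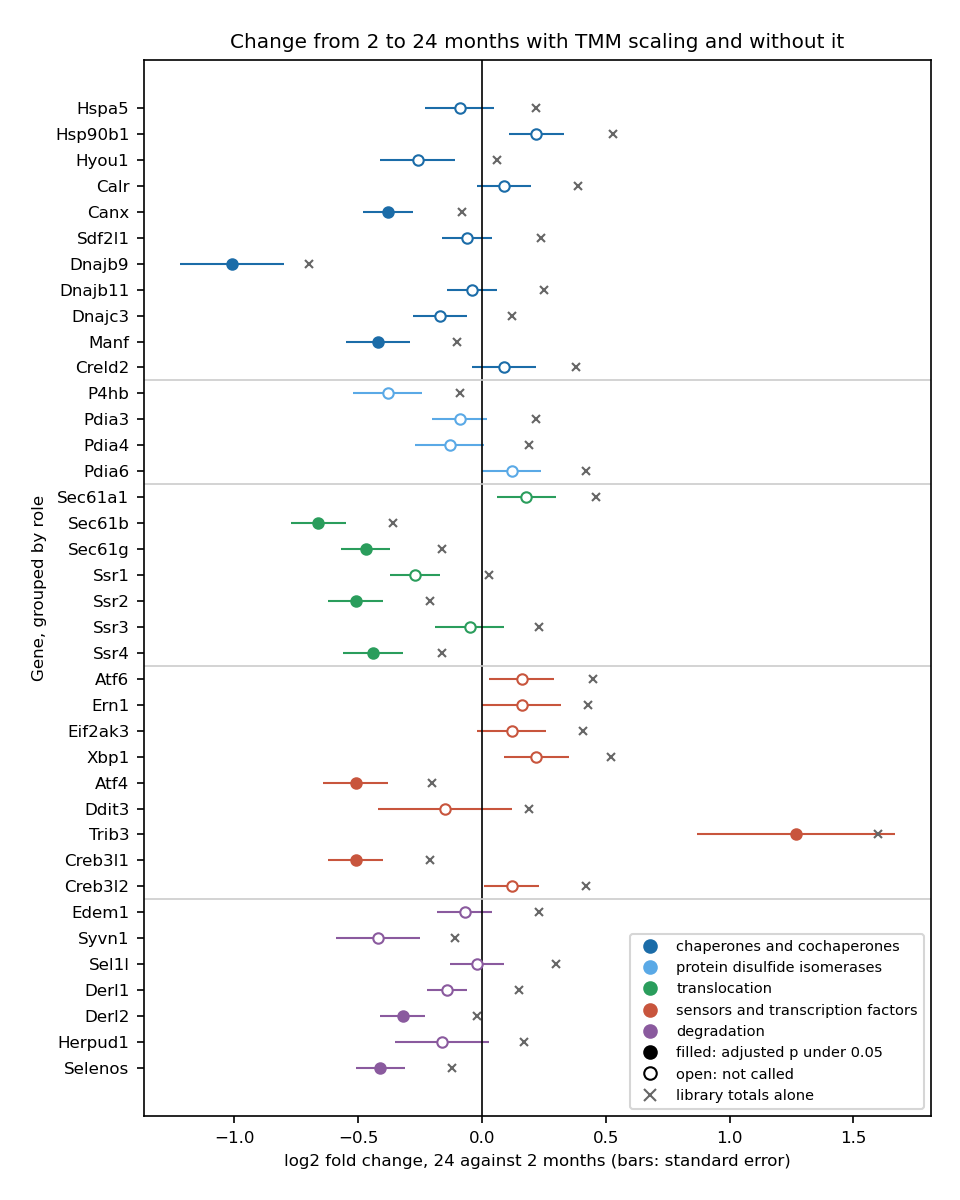
The horizontal axis is the log2 fold change from 2 to 24 months, with bars of 1 standard error from the edgeR fit, for 38 genes on the vertical axis coloured by role. Filled points passed an adjusted p of 0.05, and grey crosses give the same value with library totals in place of TMM, which moves each point to the right. The 11 filled points on the left remain left of 0 under both scalings, while Hspa5 and several other open points change side.

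Of the 7 translocation subunits 4 were lower at 24 months and 0 higher, against 7.56% lower and 9.82% higher over all tested genes, with a median log2 difference of -0.44 (-0.16 with library totals alone, which called Sec61b lower and Sec61a1 higher). The mRNAs of Sec61b, Sec61g and Ssr4 are under 1000 nucleotides, a class in which 48.4% of expressed protein-coding genes were lower, and the calls of Sec61g and Ssr4 were lost once a trend with mRNA length was removed (edgeR adjusted p = 0.107 and 0.201). Sec61b (ENSMUSG00000053317, GRCm38 chromosome 4, 47474658 to 47483242), the beta subunit of the channel, had 176, 203 and 189 CPM in the 3 libraries at 2 months. At 12 months it had 151, 145 and 161 CPM, and at 24 months 127, 122 and 110. Every old library lay below every library at 12 months, and these below every library at 2 months. The decrease was 36.8%, a log2 difference of -0.66 with a standard error of 0.11 (edgeR adjusted p = 0.00222), and -0.36 with library totals alone (adjusted p = 0.0296). Sec61g (ENSMUSG00000078974, chromosome 11, 16500530 to 16508484), the gamma subunit, had 33.3, 40 and 37 CPM at 2 months. It had 35.5, 29.5 and 32.4 CPM at 12 months and 27.9, 24 and 27.9 at 24 months, with no overlap between the youngest and oldest. Its log2 difference was -0.47 (edgeR adjusted p = 0.0113), and without 2-month replicate 2 the adjusted p was 0.053.

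The channel's pore-forming subunit did not show a decrease. Sec61a1 had 115, 97.7 and 102 CPM at 2 months and 134, 107 and 115 at 24 months, a log2 difference of 0.18 (edgeR adjusted p = 0.322). With library totals alone that difference was 0.46 and Sec61a1 was called higher. The ratio of Sec61b to Sec61a1 counts within a library does not depend on scaling. It was 1.52, 2.08 and 1.85 in the 2-month libraries, 1.28, 1.44 and 1.47 in the 12-month libraries, and 0.949, 1.13 and 0.951 in the 24-month libraries. All 24-month ratios lay below all 2-month ratios, with the 12-month ratios between them. The pair sets a gene called lower over a gene not called, so the ratio is no separate support for the call. The mRNAs of Sec61b and Sec61a1 have 564 and 3172 nucleotides, so a trend with mRNA length enters this ratio. With that trend removed their log2 differences at 24 months were -0.39 and 0.12.

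The translocon-associated protein (TRAP) complex, which sits beside the channel and helps chains enter, also had called and uncalled subunits. Ssr2 (ENSMUSG00000041355, chromosome 3, 88575876 to 88588419), its beta subunit, had 228, 238 and 235 CPM at 2 months, 194, 160 and 185 CPM at 12 months, and 176, 171 and 146 at 24 months. Both older ages lay wholly below the youngest. The log2 difference at 24 months was -0.51 with a standard error of 0.11 (edgeR adjusted p = 0.011). Ssr4 (ENSMUSG00000002014, chromosome X, 73787028 to 73790830), the delta subunit, had 203, 225 and 204 CPM at 2 months. Its later levels were 164, 143 and 162 CPM at 12 months and 182, 146 and 137 at 24 months, again below all young libraries. The log2 difference was -0.44 (edgeR adjusted p = 0.0296), with the call lost without replicate 2 or 3 of either 2 or 24 months (adjusted p up to 0.108). Ssr1, the alpha subunit, lay lower in all old libraries but was not called (log2 difference -0.27, edgeR adjusted p = 0.0815). Ssr3, the gamma subunit, had overlapping libraries and a log2 difference of -0.05. The mRNAs of Ssr2 and Ssr4 have 1124 and 765 nucleotides, those of Ssr1 and Ssr3 9333 and 2957. With the length trend removed, Ssr1 was called lower (log2 difference -0.33, edgeR adjusted p = 0.0429) and Ssr4 was not called (edgeR adjusted p = 0.201). Which subunits were called therefore depends on that setting.

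**Figure D3:**
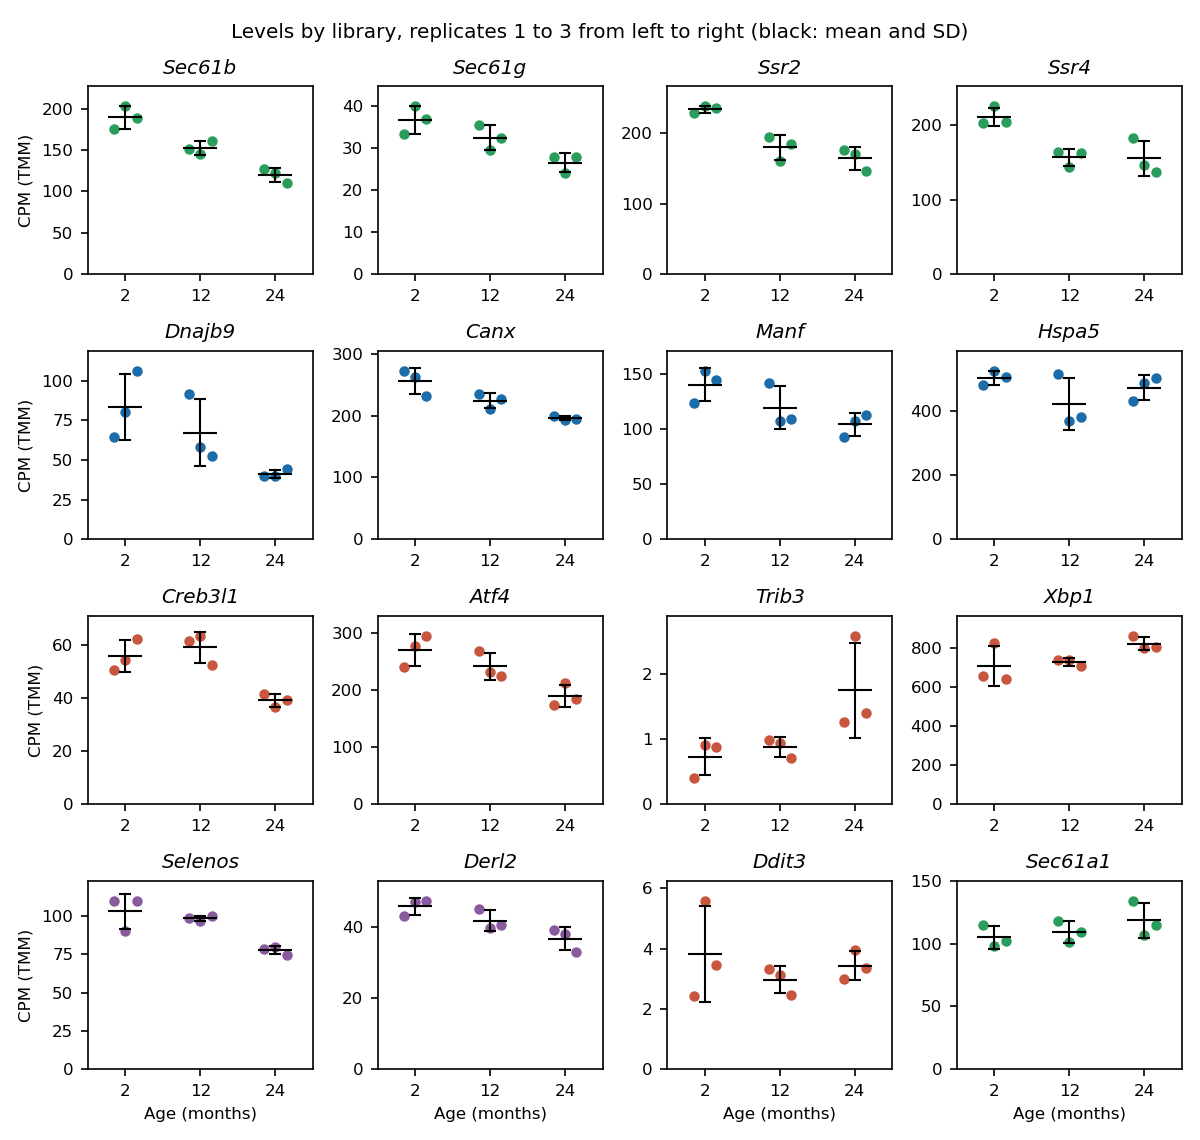
Levels in CPM (TMM, vertical axes from 0) of 16 genes by age in months, with 1 point for each library in the order of replicates 1 to 3 and a black bar for the mean and SD of the 3. Sec61b, Sec61g, Ssr2, Ssr4, Dnajb9, Canx, Manf, Creb3l1, Atf4, Selenos and Derl2 have all 24-month points below all 2-month points, Trib3 has them above, and Hspa5, Xbp1, Ddit3 and Sec61a1 overlap.

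Among 11 chaperones and cochaperones, 3 fell by 24 months and 0 rose, against 7.56% of all tested genes lower and 9.82% higher, and 15.8% lower among expressed protein-coding genes. Dnajb9 (ENSMUSG00000014905, chromosome 12, 44205559 to 44210326) encodes ERdj4, a cochaperone of BiP and a textbook target of spliced XBP1, and showed the largest decrease of the 38. Its levels were 64.3, 79.9 and 106 CPM at 2 months, 91.5, 57.9 and 52.3 CPM at 12 months, and 40.1, 39.7 and 44.1 at 24 months. The old libraries lay close together and below all others, while the younger ages were widely spread. The log2 difference was -1.01 with a standard error of 0.21, a fold of 0.495 (edgeR adjusted p = 0.00758), and -0.70 with library totals alone (adjusted p = 0.0382). Canx (ENSMUSG00000020368, chromosome 11, 50293961 to 50325673) encodes calnexin, the membrane lectin that retains unfolded glycoproteins. It had 272, 263 and 232 CPM at 2 months, 235, 211 and 227 CPM at 12 months, and 200, 193 and 195 at 24 months, a log2 difference of -0.38 (edgeR adjusted p = 0.0274). Leaving out 2-month replicate 1 or 2 or 24-month replicate 2 or 3 raised its adjusted p to as much as 0.0829. Manf (ENSMUSG00000032575, chromosome 9, 106838312 to 106891979), a secreted and ER-resident stress protein that binds BiP, had 124, 153 and 145 CPM at 2 months. It had 142, 108 and 109 CPM at 12 months and 93.1, 108 and 113 at 24 months, and among the 9 fits with 1 library left out, only those without replicate 1 of 2 or of 12 months called it (log2 difference -0.42, edgeR adjusted p = 0.0471, up to 0.153 with a library left out).

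Hspa5, Hsp90b1 and Calr were not called. Hspa5 (ENSMUSG00000026864, chromosome 2, 34771970 to 34777547), the ER Hsp70 called BiP, had 481, 526 and 508 CPM at 2 months, 516, 370 and 383 CPM at 12 months, and 431, 489 and 503 at 24 months. The ages overlapped, and the log2 difference from 2 to 24 months was -0.09 with TMM and 0.22 with library totals alone (edgeR adjusted p = 0.719 and 0.332). Hsp90b1, the ER Hsp90 called GRP94, went from 123 to 137 CPM at 2 months to 139 to 165 at 24 months, a log2 difference of 0.22 (edgeR adjusted p = 0.181), and passed the test with library totals alone and in no other alternative run. Calr, the soluble lectin calreticulin, lay at 632 to 667 CPM at 2 months and 690 to 698 at 24 months (log2 difference 0.09, edgeR adjusted p = 0.645). The ratio of Canx to Calr, free of scaling, was 0.391 ± 0.0356 (SD, n = 3) at 2 months, 0.393 ± 0.00285 at 12 months and 0.282 ± 0.0039 at 24 months. Likewise the ratio of Dnajb9 to Hspa5 was 0.165 ± 0.0394 (SD, n = 3) at 2 months and 0.0873 ± 0.006 at 24 months, and that of Manf to Hspa5 0.278 ± 0.0172 and 0.221 ± 0.00404. In these 3 ratios no old library reached a young one. Each sets a gene called lower over a gene not called, so such a separation follows in part from the choice of pairs. Hyou1, Sdf2l1, Dnajb11, Dnajc3 and Creld2, the other chaperones and cochaperones, had log2 differences between -0.26 and 0.09 and were not called.

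None of the 4 protein disulfide isomerases was called at 24 months. P4hb, the most abundant of them, had 2350, 2440 and 2290 CPM at 2 months, 1900, 1710 and 1960 CPM at 12 months, and 2080, 1740 and 1610 at 24 months. All older libraries lay below the young ones, but the old libraries were spread and the log2 difference of -0.38 had an edgeR adjusted p of 0.0893. DESeq2 and limma voom called it lower. It was also the 1 isomerase with an unadjusted p under 0.05 by edgeR, against 31.7% of all genes. Pdia3, the isomerase that works with calnexin and calreticulin, and Pdia4 had log2 differences of -0.09 and -0.13. Pdia6, an isomerase that associates with BiP, had a log2 difference of 0.12. The libraries of the 2 ages overlapped for these 3 genes.

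Of the 9 sensors and transcription factors, 2 fell and 1 rose by 24 months. Over all tested genes 7.56% were lower and 9.82% higher, and among expressed protein-coding genes 15.8% and 6.42%. With 9 genes the counts were not tested against these shares. Creb3l1 (ENSMUSG00000027230, chromosome 2, 91982328 to 92024502) encodes OASIS, a membrane-bound factor related to ATF6 that is cleaved at the Golgi. Its levels were 50.5, 54.4 and 62.3 CPM at 2 months, 61.5, 63.4 and 52.4 CPM at 12 months, and 41.4, 36.5 and 39.4 at 24 months. Young and middle-aged libraries overlapped, and all old ones lay lower. The log2 difference from 2 months was -0.51 with a standard error of 0.11 (edgeR adjusted p = 0.00871). Its close relative Creb3l2 was at 47.4 to 50.8 CPM at 2 months and 52.4 to 54.7 at 24 months, a log2 difference of 0.12 (edgeR adjusted p = 0.471). The ratio of Creb3l1 to Creb3l2 was 1.13 ± 0.132 (SD, n = 3) at 2 months, 1.21 ± 0.168 at 12 months and 0.727 ± 0.0307 at 24 months, without overlap between 2 and 24 months. Here too a gene called lower stands over a gene not called, so the ratio is no separate support for the call.

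Atf4 (ENSMUSG00000042406, chromosome 15, 80255184 to 80257541), the factor translated when PERK or a related kinase phosphorylates eIF2alpha, had 239, 276 and 294 CPM at 2 months. It had 268, 231 and 224 CPM at 12 months and 174, 211 and 183 at 24 months, the oldest lying below all others. Its log2 difference was -0.51 with a standard error of 0.13 (edgeR adjusted p = 0.0177), with the call lost without replicate 2 or 3 at 2 months or replicate 1 or 3 at 24 months (adjusted p up to 0.0735). Since ATF4 is controlled mainly at translation, its mRNA level does not report its activity. Trib3 (ENSMUSG00000032715, chromosome 2, 152337422 to 152344032) had 0.399, 0.91 and 0.877 CPM at 2 months, 0.994, 0.94 and 0.704 CPM at 12 months, and 1.26, 2.59 and 1.41 at 24 months. Those levels rest on 16 to 113 counts in a library. The fold was 2.41, a log2 difference of 1.27 with a standard error of 0.40 (edgeR adjusted p = 0.0482), and of the 9 fits with a library left out only those without 12-month replicate 3 or 24-month replicate 1 called it, with adjusted p up to 0.212 in the others.

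Ddit3 (ENSMUSG00000025408, chromosome 10, 127290774 to 127296288), the factor CHOP that marks prolonged ER stress, stayed at low levels. Its libraries had 2.44, 5.58 and 3.45 CPM at 2 months, 3.32, 3.13 and 2.45 CPM at 12 months, and 2.99, 3.94 and 3.36 at 24 months, a log2 difference of -0.15 with TMM and 0.19 with library totals alone (edgeR adjusted p = 0.753 with TMM). A second gene model of the annotation overlaps Ddit3 and held 0 counts. On the opposite strand Mars shares 68 exon bases with Ddit3 and Gm4189 shares 13. Over the 9 libraries Mars held 14624 counts and Gm4189 177, against 1271 for Ddit3. The strand setting is not given, so reads may be shared. Xbp1 (ENSMUSG00000020484, chromosome 11, 5520659 to 5525893), the factor made by IRE1 splicing, had 657, 826 and 640 CPM at 2 months, 740, 736 and 705 CPM at 12 months, and 861, 799 and 805 at 24 months. Its log2 difference of 0.22 was not called with TMM (edgeR adjusted p = 0.291) and was 0.52 and called with library totals alone (adjusted p = 0.016). The 3 sensors Ern1, Eif2ak3 and Atf6 had log2 differences of 0.16, 0.12 and 0.16 with overlapping libraries, and none was called.

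Of the 7 degradation genes 2 fell by 24 months and 5 were not called, against 7.56% of all tested genes and 15.8% of expressed protein-coding genes lower. Selenos (ENSMUSG00000075701, chromosome 7, 66079649 to 66089405), a selenoprotein of the retrotranslocation complex, had 110, 90.1 and 110 CPM at 2 months, 98.7, 97.1 and 100 CPM at 12 months, and 78.5, 80.1 and 74.9 at 24 months. Old libraries lay below all others, with a log2 difference of -0.41 (edgeR adjusted p = 0.0173, and up to 0.0728 without 2-month replicate 3 or 24-month replicate 3). Derl2 (ENSMUSG00000018442, chromosome 11, 71007164 to 71019841), a derlin through which misfolded proteins leave the ER, had 43, 46.9 and 47.3 CPM at 2 months. It had 45.1, 39.6 and 40.4 CPM at 12 months and 39.1, 37.9 and 33 at 24 months, a log2 difference of -0.32 (edgeR adjusted p = 0.0372) called only without replicate 1 of any of the 3 ages among the 9 fits with a library left out (adjusted p up to 0.15). Syvn1, the ubiquitin ligase HRD1, lay lower in all old libraries, with 65.1, 73.3 and 96.5 CPM at 2 months against 54.4, 61.5 and 59.4, but was not called (log2 difference -0.42, edgeR adjusted p = 0.11). Its partner Sel1l, the mannosidase-like lectin Edem1, Derl1, and Herpud1, which recruits the ligase complex, had log2 differences between -0.16 and -0.02 and were not called.

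Folding and translocation genes were set against sensors and degradation genes. By 24 months 7 of 22 of the former were lower and 0 higher, and 4 of 16 of the latter were lower and 1 higher. Over all tested genes 7.56% were lower and 9.82% higher, and among expressed protein-coding genes 15.8% and 6.42%. The medians of the log2 differences of the former and the latter were -0.15 and -0.10. In a single library the median of the first set minus that of the second, relative to 2 months, was between -0.06 and 0.08 at 2 months, between -0.20 and -0.03 at 12 months, and between -0.15 and -0.08 at 24 months, with an SD between libraries of an age of 0.07. All 24-month library values lay below all 2-month ones. At 24 months the difference of the fitted medians was -0.04, and it was -0.13 without 2-month replicate 2. The SD of 0.07 describes the library values and does not measure the spread of that fitted difference. Within each side the subgroups differed more than the sides did. Translocation genes had a median of -0.44 against -0.09 for chaperones and -0.11 for disulfide isomerases, and sensors and transcription factors had 0.12 against -0.16 for degradation genes. With library totals alone those medians were -0.16, 0.22, 0.21, 0.42 and 0.15, in the same sequence of groups. These are descriptions of chosen genes without a test.

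At 12 months none of the 38 genes differed from 2 months by edgeR's quasi-likelihood test, against 7.93% of all tested genes (5.41% higher and 2.52% lower). At an unadjusted p under 0.05 there were 9 of 38, 8 of them lower, against 23.2% of all genes. DESeq2 called 5 lower, namely Sec61b, Ssr2, Ssr4, Sdf2l1 and P4hb, against 9.78% of all genes by that tool, and limma voom called the first 4 of these, against 6.93%. Smallest was the adjusted p of Sdf2l1, a partner of BiP cochaperones, at 0.0507 for a log2 difference of -0.36, with 63, 69.6 and 63.4 CPM at 2 months and 58, 46 and 48.3 CPM at 12 months. Ssr4 had -0.43 (edgeR adjusted p = 0.0536) and Ssr2 -0.38 (edgeR adjusted p = 0.0601). In 8 of 38 genes all 12-month libraries lay below all 2-month ones, against 12.4% of all genes, and in 2 (Hsp90b1 and Eif2ak3) above, against 15.1%. Eif2ak3, the sensor PERK, had 16.7, 15.4 and 18.4 CPM at 2 months and 27.7, 22.2 and 18.5 CPM at 12 months, a log2 difference of 0.44 (edgeR adjusted p = 0.0848). The median of the 38 was -0.17 with TMM and 0.13 with library totals alone, against 0.01 and 0.31 for all genes, and 29 of 38 lay below the median gene under both. Without single libraries 0 to 2 genes were called lower, with 1 without 12-month replicate 1, 1 without 24-month replicate 1 and 2 without 24-month replicate 3, and 1 was called higher without 12-month replicate 3.

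The 12-month libraries were not alike in these genes. Replicate 1 was the highest of its age in 34 of the 38, including 11 of 11 chaperones, while it was the highest for 30.7% of all tested genes. The CPM of Dnajb9 in that library was 1.66 times the mean of the other two, that of Herpud1 1.56 times, of Hyou1 1.49, of Syvn1 1.47 and of Hspa5 1.37 times. The median of all genes was 0.987. Hyou1, the large ER Hsp110 called GRP170, had 132 CPM in replicate 1 and 88.7 and 88.6 in the others, and Herpud1 had 305 against 189 and 202. Relative to 2 months the median log2 difference of the chaperones was 0.02 in replicate 1, -0.37 in replicate 2 and -0.26 in replicate 3. In the same library the 9 plasma cell markers summed to 278 CPM against 304 and 189, and 6 skeletal muscle markers to 26.7 against 1.21 and 52.8. For both lists replicate 1 lay between the other libraries. The 6 adipocyte markers summed to 10.5 CPM in replicate 1, below the 35.4 and 34.3 of the others. Also lowest there were the 8 macrophage markers (227 CPM against 295 and 252) and the 6 fibroblast markers (87.5 against 99.5 and 102). The 6 salivary gland markers summed to 5.92 CPM in replicate 1, 379 in replicate 2 and 2.07 in replicate 3. The part of these cells in the pattern was not tested. This comparison ranks 3 libraries of 1 age and was noticed in the data.

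**Figure D4:**
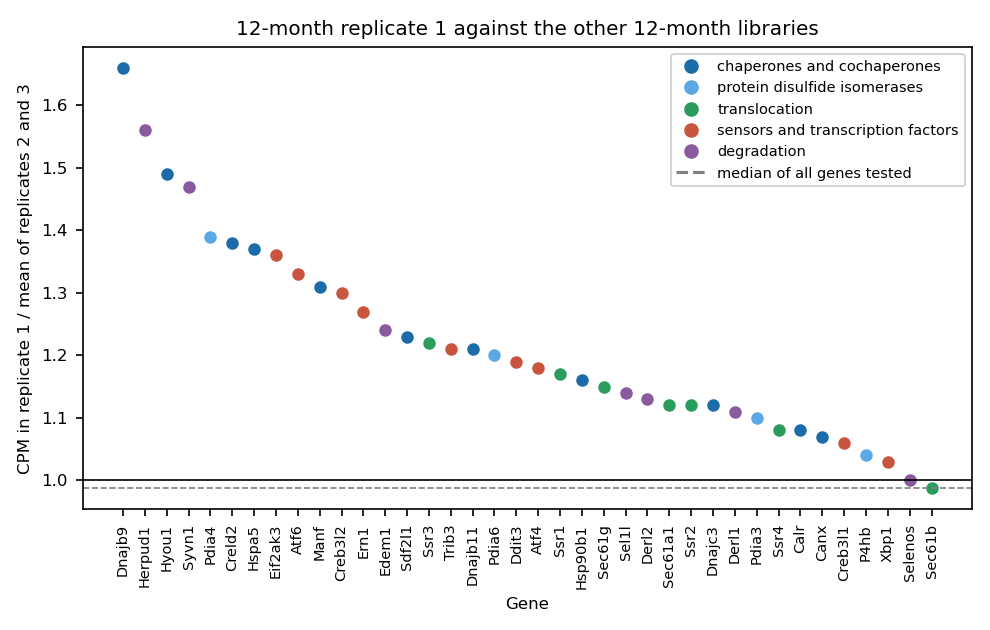
The vertical axis is the CPM of 12-month replicate 1 divided by the mean of the other 12-month libraries, for 38 genes in descending order, coloured by role. The dashed line is the median of all tested genes at 0.987 and the solid line equality. Dnajb9 leads at 1.66, followed by Herpud1, Hyou1 and Syvn1, and Sec61b is last, at the median of all genes.

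From 12 to 24 months 1 of the 38 genes was called, lower, against 4.39% of all tested genes (2.79% higher and 1.6% lower). Creb3l1 fell from 59.1 ± 5.88 CPM (SD, n = 3) at 12 months to 39.1 ± 2.48 at 24 months, a log2 difference of -0.60 (edgeR adjusted p = 0.00915), and was called in all 9 fits with a library left out (adjusted p up to 0.0465). Without 2-month replicate 2 a count of 2 genes was called. Library totals alone gave -0.61 (adjusted p = 0.0373). In 8 genes all 24-month libraries lay below all 12-month ones, against 12.6% of all genes, and in 5 above, against 12.1%. At an unadjusted p under 0.05 there were 11 of the 38, 7 of them lower, against 18.9% of all genes. DESeq2 called Creb3l1, Sec61b and Selenos lower and Calr and Pdia6 higher, against 8.02% of all genes. Tested over the 3 ages together, 8 of 38 differed, against 17% of all genes, namely Sec61b, Creb3l1, Dnajb9, Ssr2, Sec61g, Selenos, Ssr4 and Atf4. Without 2-month replicate 2 that number was 4, without 2-month replicate 3 it was 3, without 24-month replicate 2 it was 4, and without 12-month replicate 2 or 24-month replicate 3 it was 5. The comparisons with 2 months share the same 3 young libraries and are not independent of each other.

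The genes that fell include several very short mRNAs, and mRNA length moved with the change among expressed protein-coding genes. Among protein-coding genes averaging at least 10 CPM, 48.4% of the 395 with mRNAs of up to 1000 nucleotides were lower at 24 months, with a median log2 difference of -0.36. The share was 24.9% up to 1500 nucleotides, 14.8% up to 2500, 9.94% up to 4000 and 10.8% above, where the median was -0.01. Sec61b (564 nucleotides), Sec61g (735) and Ssr4 (765) were the 3 genes of the list in the shortest class, and all 3 were lower. In the other classes 2 of 4, 3 of 9, 2 of 10 and 1 of 10 were lower. Across genes, Spearman's rho between length and log2 difference was 0.32 for the 38 and 0.24 for the 5066, where genes share libraries and are not independent replicates. With the length trend of each library taken off, an alternative chosen after seeing the data, 9 of the 38 were lower and 0 higher, against 15.9% of all genes called. Sec61b then had a log2 difference of -0.39 (edgeR adjusted p = 0.0147) and Ssr2 -0.38 (edgeR adjusted p = 0.0369). Sec61g at -0.24, Ssr4 at -0.23 and Selenos at -0.30 were no longer called (edgeR adjusted p = 0.107, 0.201 and 0.0887), nor was Trib3 (edgeR adjusted p = 0.0538), while Ssr1 was. Dnajb9 had -1.06 and Creb3l1 -0.56, against -1.01 and -0.51 before. RNA quality was not measured in the files, and its part in the length trend was not tested.

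**Figure D5:**
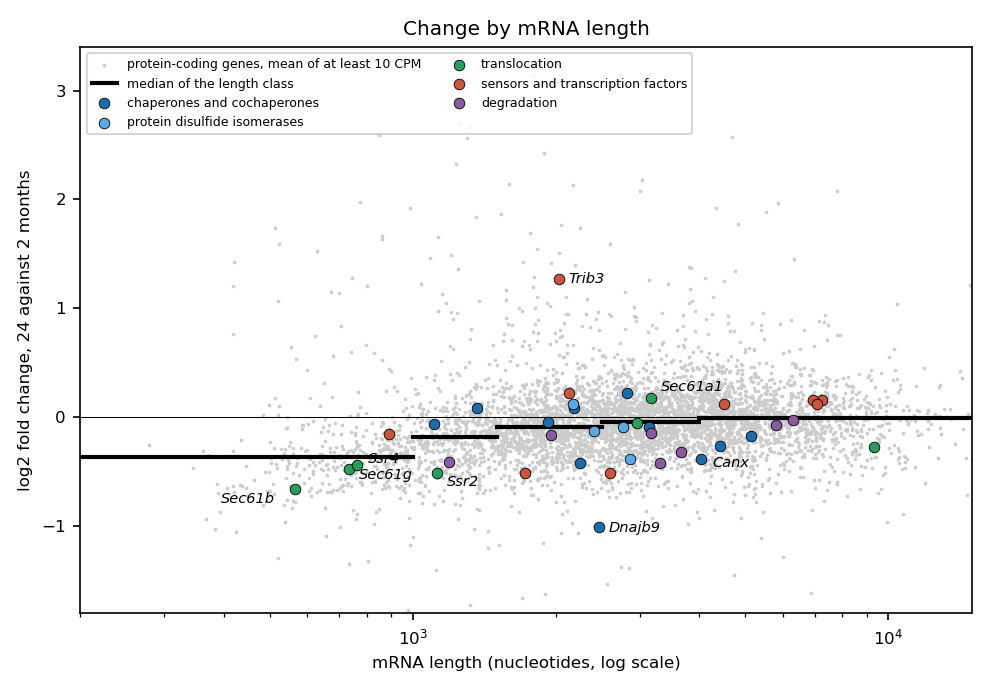
The horizontal axis is mRNA length in nucleotides on a log scale and the vertical axis the log2 fold change from 2 to 24 months (TMM). Grey points are protein-coding genes averaging at least 10 CPM, black lines the median of 5 length classes, from -0.36 to -0.01, and coloured points the 38 genes by role. Sec61b, Sec61g and Ssr4 lie at the short end with many other genes that fell, and Dnajb9 lies below the median of its length class.

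Other genes of the same pathways were followed as 7 lists of 128 genes in all. In 24 further folding and redox genes 6 were lower and 3 higher by 24 months, with a median log2 difference of -0.16. Fkbp11, a prolyl isomerase of secretory cells, fell from 39.9, 33.3 and 31.5 CPM to 16.6, 12.6 and 12.1 (log2 difference -1.35, edgeR adjusted p = 0.000139), and its relative Fkbp2 fell by 0.84 (edgeR adjusted p = 0.000908). Both mRNAs are under 1000 nucleotides. Of 16 genes of signal recognition and signal peptidase, 7 were lower and 0 higher (median -0.30), among them Srp9 of the signal recognition particle (log2 difference -0.70, edgeR adjusted p = 0.00122) and the peptidase subunits Spcs2 (-0.50) and Sec11a (-0.43). In the oligosaccharyltransferase, which attaches N-glycans during translocation, 4 of 11 were lower and 0 higher (median -0.33), led by Dad1 (log2 difference -0.46, edgeR adjusted p = 0.00687). Over all tested genes the shares were 7.56% lower and 9.82% higher, and among expressed protein-coding genes 15.8% and 6.42%. Among expressed protein-coding genes with mRNAs of up to 1000 nucleotides, 48.4% were lower. The counts of these lists were not set against mRNA length. With library totals alone the medians of these 3 lists were 0.14, -0.02 and -0.03, and 3 genes, 1 gene (Srp9) and 0 genes were lower, with 3, 1 and 0 higher.

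The other 4 lists cover degradation, transport, the eIF2alpha branch and regulators of the sensors, and their counts stand against 7.56% lower and 9.82% higher over all tested genes and 15.8% and 6.42% among expressed protein-coding genes. Of 21 other degradation genes 3 were lower and 1, the ligase gene March6, was higher (log2 difference 0.50, edgeR adjusted p = 0.0173), and of 23 genes of ER to Golgi transport 3 were lower, including the retrieval receptors Kdelr2 (-0.58) and Kdelr3 (-0.73). Among 21 other genes of the eIF2alpha branch 2 were lower, Phgdh of serine synthesis and the stress protein gene Nupr1 (log2 difference -0.98, edgeR adjusted p = 0.00587). From 12 to 24 months 3 of these 21 were called. Asns and Sesn2, both known ATF4 targets, rose (edgeR adjusted p = 0.0414 and 0.00801) and Nupr1 fell (log2 difference -0.77, edgeR adjusted p = 0.0414), against 2.79% of all genes higher and 1.6% lower. With library totals alone Asns was no longer called. Of 12 proteases and regulators of the sensors 2 were lower at 24 months, Wfs1 and Bhlha15. Bhlha15, also called Mist1, is the factor that sets the secretory capacity of acinar cells and an XBP1 target, and had 546, 521 and 537 CPM at 2 months, 456, 425 and 458 CPM at 12 months, and 404, 384 and 372 at 24 months (log2 difference -0.47 at 24 months, edgeR adjusted p = 0.0127). Its 3 ages did not overlap. Derl3, a derlin abundant in secretory cells, was not called at 24 months (log2 difference 0.06, edgeR adjusted p = 0.765). With library totals alone, Nupr1 was the 1 gene of these 4 lists still called lower at 24 months, while 12 were called higher, among them March6, Asns and Sesn2.

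Cells other than acinar cells also use this machinery, and their markers moved with age. The counts below stand against 9.82% of all tested genes higher and 7.56% lower at 24 than at 2 months. Plasma cells secrete antibody through the same ER, and 7 of 9 of their markers were higher at 24 than at 2 months, with summed levels of 199 to 206 CPM at 2 months, 189 to 304 at 12 months and 301 to 329 at 24 months. Of those sums Derl3, which acinar cells also express, made up 175 to 191 CPM at 2 months. The 8 B cell markers summed to 0.368 to 0.499 CPM at 2 months, 19.8 to 174 at 12 months and 14.7 to 27.9 at 24 months, and 7 were higher at 24 months. Macrophage markers rose in 8 of 8, from 68.9 to 104 CPM at 2 months to 276 to 396 at 24 months, and fibroblast markers in 3 of 6, from 78.9 to 141 to 133 to 212. All 6 adipocyte markers rose, from at most 2.04 CPM in sum to 10.4 to 29, and Lep was at 0 at 2 months. Of 9 acinar markers 1, Bhlha15, was lower and 0 higher at 24 months, and their sum was 320000 to 404000 CPM at 2 months and 263000 to 359000 at 24 months. Of 6 genes of acute stress and dissociation Jun and Egr1 were higher at 24 months, with sums of 18.7 to 34.7 CPM at 2 months and 33 to 42.6 at 24 months. With library totals alone the B cell, plasma cell, macrophage, adipocyte and fibroblast counts were the same, while Pigr was the 1 acinar marker called, higher. The part of these cells in the changes of the 38 genes was not tested.

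The 8 genes with an ERSE were read against the promoters shown above. At 24 months 1 of 8, Canx, was lower and 0 higher, with log2 differences between -0.42 and 0.22 and a median of 0.0. Over all tested genes 7.56% were lower and 9.82% higher, and among expressed protein-coding genes 15.8% and 6.42%. The count of 1 of 8 lies near these shares of lower genes. Of the 23 others with a promoter entry 7 were lower and 1 higher, with a median of -0.13. Among these 7 were Sec61b, Sec61g and Ssr4, with mRNAs of up to 1000 nucleotides. In that length class 48.4% of expressed protein-coding genes were lower. Creb3l1, Manf, Sec61a1, Atf6, Hyou1, Derl1 and Ssr2 had no promoter entry and are in neither set. Of these, Creb3l1, Manf and Ssr2 were lower. At 12 months the medians were -0.20 and -0.16, and none of either set was called. These counts were not tested.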

How the data were processed

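The deposited values used are whole-number counts of reads per gene in 9 libraries, as the authors' count table gives them. The tools named in the submitters' processing notes are STAR, HTSeq, cutadapt, FastQC and DESeq2, with the build GRCm38. The strand setting, like versions, annotation release and read filters, is not given in the sources used here, so genes that overlap on opposite strands may share reads. Per the labels' protocols, total RNA was read in pairs on a BGISEQ500RS. The authors' log2 table was not used.

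Symbols, coordinates and mRNA lengths came from GENCODE M21 (54165 of 54232 IDs, the rest at most 0.00105% of counts), and promoters from RefSeq (GRCm38.p6). In 29 of 32 promoter entries of the 38 genes, the bases after the start lay in a GENCODE transcript of the gene in the same direction. The fit of 1 model to all 9 libraries used the quasi-likelihood F test of edgeR 4.0.16 (R 4.3.3), after TMM scaling and filterByExpr at a minimum count of 10. Benjamini-Hochberg adjustment ran over 14944 genes, with calls under 0.05. Ratios and medians were computed in Python 3.11.15 with pandas 2.3.3. Fold changes have 6 residual degrees of freedom behind them and a common coefficient of variation of 21.2%. At 40516863 or more counts a library, counting error is small except for Trib3 (16 to 113 counts) and Ddit3 (98 to 190).

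Values in every library are given for called genes and for Hspa5, Xbp1, Atf4 and Ddit3, and up to 3 called genes with the smallest p are named from each other list, with Derl3 and Bhlha15 always. Other genes with values (such as P4hb, Sec61a1, Syvn1, Sdf2l1, Hyou1, Eif2ak3, Spcs2 and Sec11a) and the order of libraries at 12 months were singled out after their values were seen. Genes and lists were chosen with earlier results of these data known. No pairing of libraries by replicate number was seen, as deviations of same-numbered libraries correlated between -0.154 and 0.061. With 3 libraries an age, these correlations cannot exclude a shared batch. On simulated data for 24 against 2 months (14590 genes, 200 changed) the procedure recovered 87% of 2-fold and 35% of 1.5-fold changes, with 12 false among 134 calls. Alternatives were other scalings, count filters, thresholds, DESeq2 1.42.0, limma 3.58.1 (voom with sample weights), a replicate block, fewer libraries or genes, and each library left out. Removal of the length trend was added after seeing the data.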

Additional observations from a re-analysis of the deposited data

How the results depend on the processing

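For the called genes among the 38, none of the alternatives run reversed the direction. Directions of other genes were not followed under every alternative. With 3 libraries an age, a change of about 1.5-fold is often missed, so an uncalled gene is not shown to be unchanged. The cause of each shift below was not tested, other than those that follow from fewer libraries, another threshold or a gene removed by a count filter.

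Decreases at 24 against 2 months numbered 11, against 2 with library totals alone, 0 without the 3 libraries with most salivary transcripts, 3 at a threshold of 0.01 and 5 to 11 with a library left out. Increases there numbered 1, against 4 with library totals alone, 0 without the length trend, with a minimum count of 50, with only the 6 libraries compared, without the 3 salivary libraries or at 0.01, and 0 to 1 with a library left out. At a minimum count of 50 the filter removed Trib3, the gene called higher, so it was not tested there. At 12 against 2 months 0 were lower, against 1 without the 10 most abundant genes in the library sizes, 3 without a count filter, 5 by DESeq2, 4 by limma voom, 1 with only 6 libraries, 2 without antigen receptor genes, 4 at 0.1 and 0 to 2 with a library left out. Higher there were 0, against 2 with library totals alone, 1 without a filter, 1 at 0.1 and 0 to 1 with a library left out. At 24 against 12 months 1 was lower, against 2 without a filter, 3 by DESeq2, 0 without the salivary libraries, 4 at 0.1 and 1 to 2 with a library left out. Higher there were 0, against 1 without a filter, 2 by DESeq2 and 1 at 0.1. Over the 3 ages 8 were called, against 14 without a filter, 15 by DESeq2, 0 without the salivary libraries, 2 at 0.01, 15 at 0.1 and 3 to 7 with a library left out.

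Over all tested genes, 1185 were called at 12 against 2 months, against 2026 without a filter, 127 without the salivary libraries, 383 at 0.01, 1921 at 0.1 and 435 to 1285 with a library left out (435 without 2-month replicate 2, 445 without 12-month replicate 2, 594 without 2-month replicate 3, 696 without 12-month replicate 1). At 24 against 2 months 2597 were called, against 626 without the salivary libraries, 891 at 0.01 and 1160 to 2623 with a library left out (1160 without 2-month replicate 2, 1405 without 24-month replicate 3, 1476 without 2-month replicate 3). At 24 against 12 months 656 were called, against 340 with library totals alone, 1486 without a filter, 1198 by DESeq2, 170 without the salivary libraries, 211 at 0.01, 1192 at 0.1 and 312 to 700 with a library left out (312 without 12-month replicate 1, 360 without 12-month replicate 2, 386 without 24-month replicate 3, 436 without 24-month replicate 2). Library totals alone made 95.3% instead of 68.2% of calls increases at 12 months. The difference between folding and sensor medians at 24 months was -0.04, and -0.13 to -0.04 with a library left out.

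With the replicate number as a block, 8 genes were lower and 0 higher at 24 against 2 months, against 12.6% of all genes called (Manf, Canx, Derl2 and Trib3 were no longer called), 4 were called over the 3 ages, and 701 and 409 genes were called at 12 against 2 and 24 against 12 months. The numbers share no source in the labels, and none of the 9 libraries correlated best with its own number, so the block is a hint from the data at most.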
